A study of Mus musculus with 8 samples.

Results

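The Schlafen genes studied here were Slfn1, Slfn2, Slfn4, Slfn5, Slfn8 and Slfn9, read through every probe set to which the array's annotation gives 1 of these symbols and no other. A probe set is a group of short probes on the array that report 1 transcript. The family was chosen by measured values, because Slfn1 had stood out in an earlier analysis of these arrays between RORγt-deficient and wildtype cells in DMSO and between digoxin and DMSO in wildtype cells. This gave 10 probe sets for 6 genes, of 45037 probe sets for the whole array without its controls. Slfn1 had 2 probe sets, Slfn5 had 3, Slfn9 had 2, and Slfn2, Slfn4 and Slfn8 had 1 each. A further 5 probe sets carry a Schlafen name but are not members. They are 1421644_at (Slfn3), 1450322_s_at (annotated to Slfn4 and Slfn3 together), 1444350_at (Slfn10-ps), 1430901_at (Slfn5os, a transcript antisense to Slfn5) and 1455838_at (Slfnl1).

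Total RNA of mouse CD4 T cells was measured on 8 Affymetrix arrays. Naive CD4 T cells from C57BL/6 mice had been sorted for all 4 groups, stimulated through CD3 and CD28 by antibodies, and held in Th17-polarising culture for 48 h. The groups, with 2 arrays each, were RORγt-deficient cells with digoxin, RORγt-deficient cells with DMSO, wildtype cells with digoxin and wildtype cells with DMSO. RORγt is the nuclear receptor that directs Th17 differentiation, digoxin is a cardiac glycoside known to block the sodium pump, and DMSO is its solvent; the sources used here do not give the deficient allele, the digoxin dose or the number of animals. Each deposited log2 value was a difference from the mean that its probe set had in wildtype DMSO, which placed that group at 0 by construction and its 2 arrays equally far above and below. A coarse range for the lowest original log2 level of a probe set could still be read from the numerical precision of the deposited values.

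Schlafen proteins are a mammalian family named for growth arrest, after the slowed growth of mouse thymocytes made to express Slfn1 in excess. The short forms, Slfn1 and Slfn2, consist of little more than the conserved Schlafen core. Slfn4 has an intermediate length, and Slfn5, Slfn8 and Slfn9 are long forms with a helicase-like carboxyl end. In the mouse, Slfn2 is required for T cells to hold quiescence, and several members, Slfn4 in macrophages among them, are induced by type I interferon.

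The 6 genes lie in 1 cluster on mouse chromosome 11. In the GRCm38.p6 RefSeq annotation their order by position is Slfn5, at chr11:82951349-82964850, Slfn9, at chr11:82974316-82991830, Slfn8, at chr11:83002125-83020810, Slfn2, at chr11:83065112-83070678, Slfn1, at chr11:83116820-83122670, and Slfn4, at chr11:83175172-83190216. Slfn2 and Slfn1 are next to each other in this row of members. The sequences below are the 130 bases before the annotated start of Slfn1, Slfn2 and Slfn4, shown 5′ to 3′ on the plus strand because the first 2 genes had the largest differences of the family and Slfn4 stands beside them with none of that size. Capitals mark the longest stretch common to all 3, 11 bases.
Slfn1: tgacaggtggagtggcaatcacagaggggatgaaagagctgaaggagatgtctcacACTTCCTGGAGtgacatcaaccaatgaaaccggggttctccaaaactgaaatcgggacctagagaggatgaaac
Slfn2: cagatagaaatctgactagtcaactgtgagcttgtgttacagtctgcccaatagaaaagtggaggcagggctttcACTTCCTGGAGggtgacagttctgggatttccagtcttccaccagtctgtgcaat
Slfn4: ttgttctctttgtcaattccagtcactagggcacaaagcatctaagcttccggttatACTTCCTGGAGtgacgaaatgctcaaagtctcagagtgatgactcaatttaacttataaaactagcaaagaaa
They lie at chr11:83116690-83116819, chr11:83064982-83065111 and chr11:83175056-83175185; for Slfn4 the start is that of the RefSeq promoter table, which lies inside the outer bounds of the gene. The stretch begins 74 bases before the start of Slfn1, 55 before that of Slfn2 and 73 before that of Slfn4, and it was found on either strand in 23 of 27025 RefSeq promoters of 300 bases (0.0851%). The stretch that Slfn1 shares with Slfn4 alone was longer, at 15 bases (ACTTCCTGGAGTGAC), than the 12 it shares with Slfn2 (CACTTCCTGGAG). The stretch of 12 bases was not in the Slfn4 window, and 11 of 27025 promoters held it (0.0407%). Each stretch was picked as the longest match between these promoters, which are among those counted. Its rarity therefore follows in part from that choice and is given as a description.

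The long forms Slfn8 and Slfn9 are shown for another motif, the interferon-stimulated response element core, searched on both strands as GAAA, any 2 bases and GAAA. Capitals mark its match, on the reverse strand in both. Both genes lie on the minus strand, and the 130 bases before each start are written in the direction of the gene.
Slfn8: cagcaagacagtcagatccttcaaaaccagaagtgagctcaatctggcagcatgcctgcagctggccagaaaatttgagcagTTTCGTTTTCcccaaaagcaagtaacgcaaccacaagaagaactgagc
Slfn9: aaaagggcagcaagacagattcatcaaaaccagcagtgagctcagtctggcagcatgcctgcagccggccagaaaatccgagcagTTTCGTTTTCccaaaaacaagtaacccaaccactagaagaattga
They lie at chr11:83020811-83020940 and chr11:82991831-82991960. The Slfn8 and Slfn9 promoters shared an unbroken stretch of 20 bases, the longest between any pair of the 6. The core was also present in the Slfn5 window, at position -155 from the start, and was not in those of Slfn1, Slfn2 or Slfn4; 943 of 27025 promoters held it (3.49%). The DNA element bound by single ROR receptors, AGGTCA, was in none of the 6 windows and in 16.0% of all promoters. The STAT site TTCNNNGAA was in none of the 6 and in 8.47% of all. Binding to these sites was not measured.

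Slfn1 was the gene of the family with the largest differences, by its probe set 1418612_at. On the log2 scale, as differences from the wildtype DMSO mean, it stood at 2.1 and 1.92 in RORγt-deficient cells in digoxin and at 1.71 and 1.79 in RORγt-deficient cells in DMSO. In wildtype cells it stood at 1.01 and 0.85 in digoxin and at 0.16 and -0.16 in DMSO. The arrays of the 4 groups did not overlap, and the order from high to low was deficient digoxin, deficient DMSO, wildtype digoxin and wildtype DMSO. The means were 2.01 ± 0.13, 1.75 ± 0.06, 0.93 ± 0.11 and 0 ± 0.22 in that order (SD, n = 2 arrays each).

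Slfn2, the quiescence gene, held the same order at smaller differences. Its log2 differences from the wildtype DMSO mean were 0.97 and 0.97 in RORγt-deficient cells in digoxin and 0.77 and 0.97 in RORγt-deficient cells in DMSO, against 0.24 and 0.36 in wildtype cells in digoxin and -0.07 and 0.07 in wildtype cells in DMSO. Both genotypes stood apart on every array, whereas the 2 deficient groups nearly touched. The lowest original log2 level over the arrays was 8 or above for Slfn2 and between 4 and 8 for this probe set of Slfn1. Because the cells were measured in bulk, more RNA per cell and a larger share of cells with the transcript cannot be told apart.

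Slfn8, a long form, was higher in the 3 other groups than in wildtype DMSO, by small amounts. It stood at 0.42 and 0.35 in RORγt-deficient cells in digoxin and at 0.32 and 0.47 in RORγt-deficient cells in DMSO, against 0.3 and 0.26 in wildtype cells in digoxin and 0.11 and -0.11 in wildtype cells in DMSO. The 2 deficient groups overlapped each other. The probe set 1458803_at of Slfn9 had the same shape at lower values, with 0.15 and 0.19 in RORγt-deficient cells in digoxin and 0.14 and 0.31 in RORγt-deficient cells in DMSO, against 0.24 and 0.18 in wildtype cells in digoxin and -0.02 and 0.02 in wildtype cells in DMSO. The other Slfn9 probe set, 1436472_at, did not show it, with group means from -0.01 to 0.08 and overlapping arrays. Both Slfn9 probe sets had a lowest level between 4 and 8.

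Slfn4 and Slfn5 stayed near the wildtype DMSO mean. For Slfn4 the 4 group means lay between -0.02 and 0.07, and its lowest level was between 2 and 4, the range of 32.0% of the array's probe sets. The Slfn5 probe sets 1442640_at and 1458458_at had group means from -0.05 to 0.04. The third, 1456288_at, had a lowest level of 8 or above and stood at 0.33 and 0.06 in RORγt-deficient cells in DMSO, with means of 0.01 in deficient cells in digoxin and -0.06 in wildtype cells in digoxin. Members with close paralogs, and Slfn4 beside Slfn3 in particular, may share hybridisation; the probe sequences were not analysed here.

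**Figure D1:**
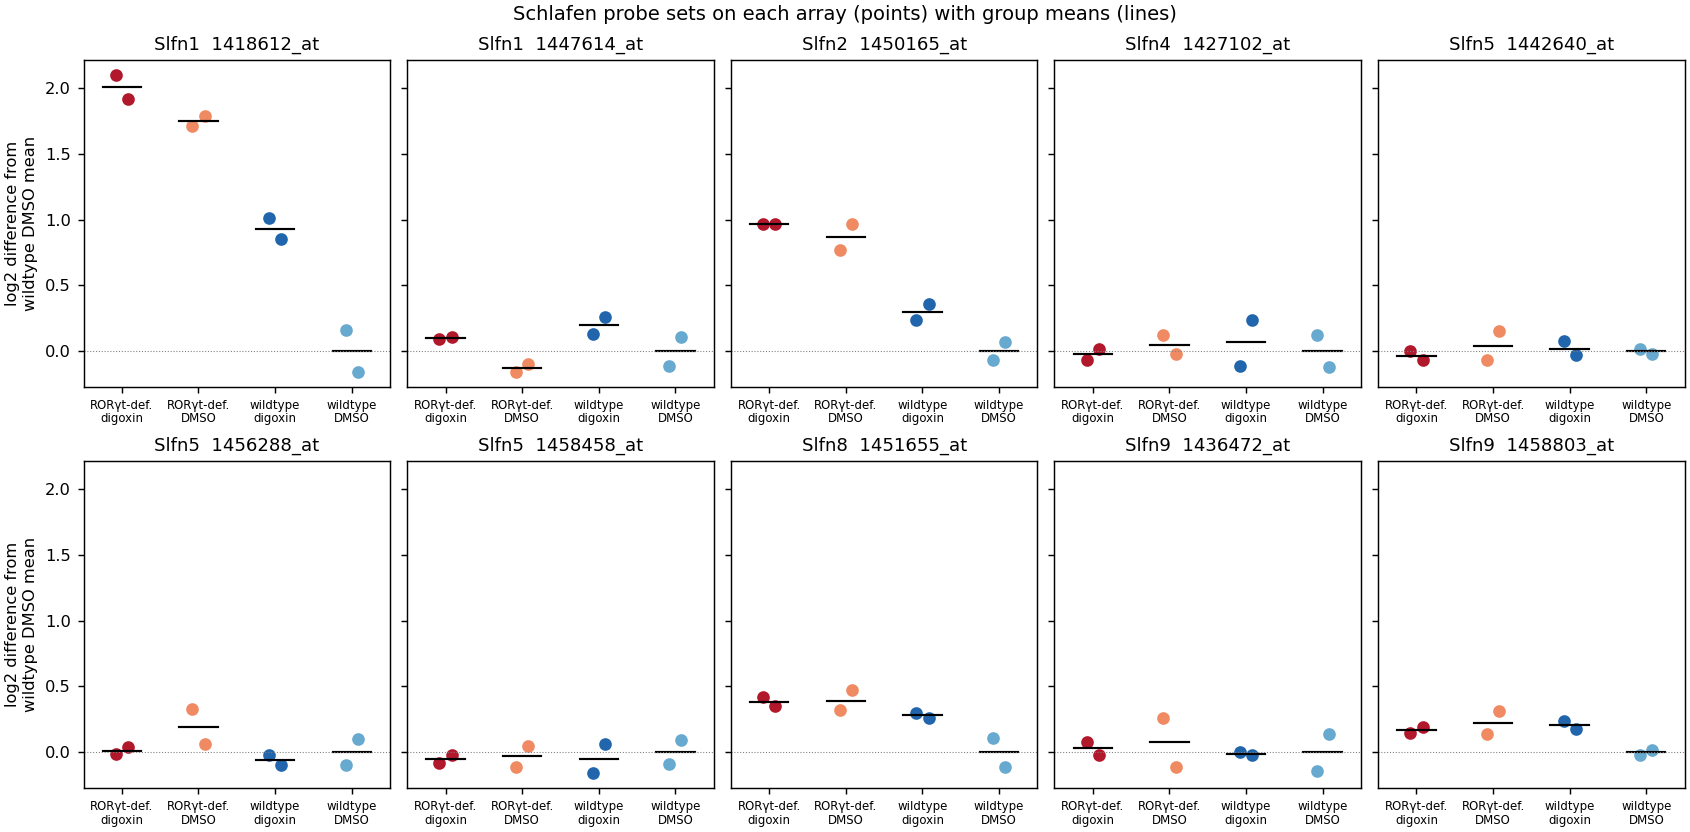
Log2 difference from the wildtype DMSO mean (vertical axis) of the 10 Schlafen probe sets in RORγt-deficient and wildtype cells in digoxin or DMSO. Points are single arrays and lines are means of 2 arrays; Slfn1 1418612_at reaches 2.1 and Slfn2 0.97, while the second Slfn1 probe set stays between -0.16 and 0.26.

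The 2 probe sets of Slfn1 did not agree on the differences between genotypes. The second, 1447614_at, stood at 0.09 and 0.11 in RORγt-deficient cells in digoxin and at -0.16 and -0.1 in RORγt-deficient cells in DMSO, against 0.13 and 0.26 in wildtype cells in digoxin and -0.11 and 0.11 in wildtype cells in DMSO. Its highest group mean was thus wildtype digoxin and its lowest deficient DMSO, but the spread between groups was small. In DMSO the arrays of the 2 genotypes overlapped. The difference between RORγt-deficient and wildtype cells in DMSO was -0.13 ± 0.12 for 1447614_at and 1.75 ± 0.13 for 1418612_at (limma SE), a gap of 1.88 on the log2 scale. Under digoxin the same difference was -0.1 ± 0.12 and 1.07 ± 0.13. Over the 8 arrays the Pearson correlation of both was -0.14, given as a description. The annotation ties 1418612_at to the RefSeq transcript NM_011407 and gives 1447614_at the symbol with no transcript accession. The lowest level of 1447614_at lay between 2 and 4, that of 1418612_at between 4 and 8. The part of level or annotation in the disagreement was not tested.

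For the comparisons through which Slfn1 was noticed the members are described without a p, and their counts, partly fixed by that choice, are no support. In DMSO, Slfn1 was 3.37-fold higher in deficient cells by 1418612_at, Slfn2 1.83-fold (0.87 ± 0.12) and Slfn8 1.31-fold (0.39 ± 0.12). Of the 10 members, 2 passed the threshold of an adjusted p under 0.05, both higher, Slfn1 and Slfn2; of all probe sets 0.184% were called higher and 0.611% in either direction. After quantile normalisation of the arrays 0 of 10 were called, with Slfn1 at 1.47 and Slfn2 at 0.72. That step forces the same spread on all arrays. The centring had left the wildtype DMSO arrays a smaller spread (SD 0.09) than the others (0.17 to 0.28). The part of this in the lost calls was not tested. The deficient arrays lay above the wildtype arrays without overlap for 4 members, Slfn1, Slfn2, Slfn8 and Slfn9 1458803_at, beside 20.2%. The members' median was 0.14 and that of all probe sets 0.01. The count was 1, with Slfn2 at differences of 0.8 and 0.94, when either wildtype DMSO array was left out, and with Slfn2 at 0.77 when the second array of deficient DMSO cells was.

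In digoxin-treated wildtype cells Slfn1 was 1.91-fold higher than in DMSO (0.93 ± 0.13), Slfn2 1.23-fold (0.3 ± 0.12) and Slfn8 1.22-fold (0.28 ± 0.12). Here 0 of the 10 members were called by limma, beside 0.0622% of all probe sets, and 3 had an unadjusted p under 0.05, beside 6.26%. The arrays of the compared groups did not overlap for 5 members, all higher, as for 18.7% of all probe sets. The nearest to Slfn1 in size after Slfn2 and Slfn8 was the Slfn9 probe set 1458803_at, at 0.21 ± 0.11. As Slfn1 was noticed through this comparison too, the counts of members given for it are no support.

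Whether digoxin changed the family where RORγt was missing was asked by comparing RORγt-deficient cells in digoxin with those in DMSO. No member had a clear difference. Slfn1 was 1.19-fold higher by 1418612_at (0.25 ± 0.13, 95% interval -0.05 to 0.55, adjusted p = 1.0), Slfn2 stood at 0.1 ± 0.12 (-0.16 to 0.36) and Slfn8 at -0.01 ± 0.12 (-0.27 to 0.26). Limma called 0 of 10 members, beside 0.00222% of all probe sets, and 0 had an unadjusted p under 0.05, beside 3.41%. Arrays of the groups did not overlap for 3 members that were higher, the 2 Slfn1 probe sets and Slfn2, as for 16.5% of all probe sets, and for 1 that was lower, Slfn5 1456288_at, as for 11.7%. The members' median was -0.03, that of all probe sets 0.01. The interval of Slfn1 reached 0.55 on the log2 scale, and its difference was 0.05 after quantile normalisation. The deficient DMSO arrays also entered a comparison through which Slfn1 was noticed. A choice by high values there could lower the Slfn1 difference given here.

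RORγt-deficient and wildtype cells were next compared under digoxin. Slfn1 was 2.1-fold higher in deficient cells (1.07 ± 0.13, 95% interval 0.77 to 1.37) and Slfn2 1.59-fold (0.67 ± 0.12, 0.41 to 0.93), and neither passed the adjustment over all probe sets (adjusted p = 0.168 and 0.305). After quantile normalisation Slfn1 stood at 0.66. Slfn8 stood at 0.1 ± 0.12 (adjusted p = 1.0). Limma called 0 of 10 members, beside 0.00222% of all probe sets. Slfn1 and Slfn2 were the 2 members with an unadjusted p under 0.05, at 1.34e-05 and 0.000203, beside 4.77% of all probe sets. Both deficient arrays lay above both wildtype arrays for 4 members, Slfn1, Slfn2, Slfn8 and Slfn5 1456288_at, as for 16.8% of all probe sets. For 1 member, Slfn1 1447614_at, both lay below, as for 13.4%. The wildtype digoxin arrays also entered the comparison through which Slfn1 was noticed.

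The difference between the digoxin effects, that in RORγt-deficient cells minus that in wildtype cells, was -0.68 ± 0.19 for Slfn1 and did not pass the adjustment (adjusted p = 1.0). It came from 0.25 in deficient cells and 0.93 in wildtype cells, and the second of these is a value by which Slfn1 was noticed, so the difference is given as a description. For Slfn2 it was -0.2 ± 0.17 and for Slfn8 -0.29 ± 0.17. Limma called 0 of 10 members, beside 0.0% of all probe sets, and Slfn1 was the 1 member with an unadjusted p under 0.05, beside 2.78%.

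RORγt deficiency was also set directly against digoxin, as RORγt-deficient cells in DMSO minus wildtype cells in digoxin. Slfn1 was 1.76-fold higher in the deficient cells (0.82 ± 0.13, 95% interval 0.52 to 1.12, adjusted p = 0.267) and Slfn2 1.48-fold (0.57 ± 0.12, 0.31 to 0.83, adjusted p = 0.323). The second Slfn1 probe set went the other way, at -0.33 ± 0.12 (adjusted p = 0.846). Limma called 0 of 10 members, beside 0.0% of all probe sets, and these 3 had an unadjusted p under 0.05, beside 5.04%. Both groups also entered the comparisons through which Slfn1 was noticed. The groups did not overlap for 4 members that were higher, Slfn1, Slfn2, Slfn8 and Slfn5 1456288_at, beside 14.2%, and for 1 that was lower, Slfn1 1447614_at, beside 15.7%.

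**Figure D2:**
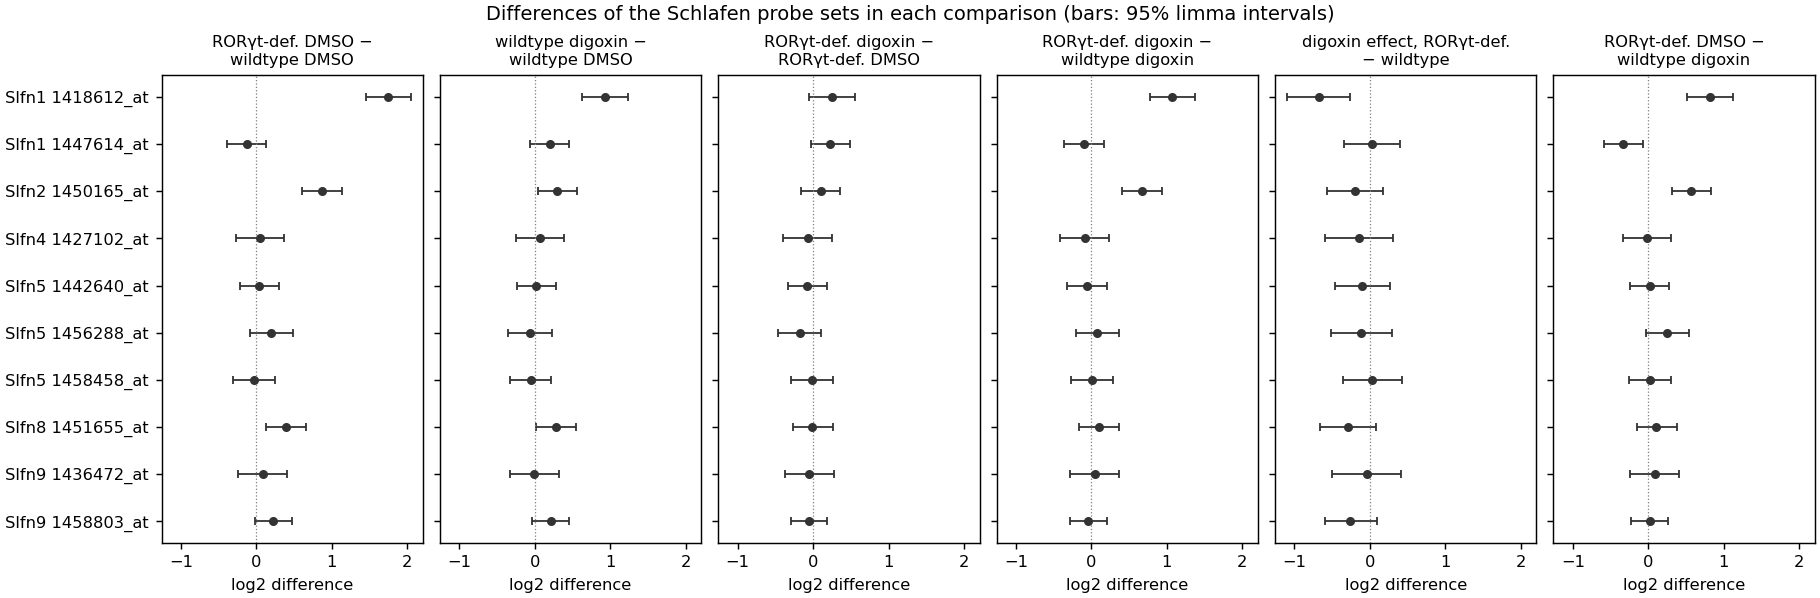
Log2 differences (horizontal axis) of the 10 Schlafen probe sets in the 6 comparisons, with 95% limma intervals over 2 arrays per group. Slfn1 1418612_at and Slfn2 lie farthest to the right where deficient cells are compared with wildtype cells, a description in DMSO because that comparison chose the family, and the intervals of every member include 0 for digoxin in deficient cells.

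Neighbouring genes were read for the same comparisons, with 1 probe set each. Besides the members, 12 genes had a probe set between Slfn5 and Slfn3, taken as the ends of the cluster with Slfn3 itself counted inside, or among the 5 nearest beyond either end, from Fndc8 to 1700020L24Rik. In RORγt deficiency in DMSO 0 of these 12 were called by limma, 1 had an unadjusted p under 0.05, beside 9.06% of all probe sets, and their median was 0.11. Unc45b, a myosin chaperone gene, had the smallest adjusted p and stood at 0.32 ± 0.12 (adjusted p = 0.428). Slfn4, the next member after Slfn1, stood at 0.05 ± 0.14, and the pseudogene Slfn10-ps, between Slfn8 and Slfn2, at 0.34 ± 0.23. The largest differences read in this row of genes were thus those of Slfn2 and Slfn1, in a comparison through which Slfn1 was noticed. Slfn4, Slfn3, Unc45b and Fndc8 had a lowest level between 2 and 4. Slfn5 was read here by 1442640_at, which had no level range. Under digoxin the 12 neighbours had a median of 0.05, again with 0 called and 0 at an unadjusted p under 0.05.

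**Figure D3:**
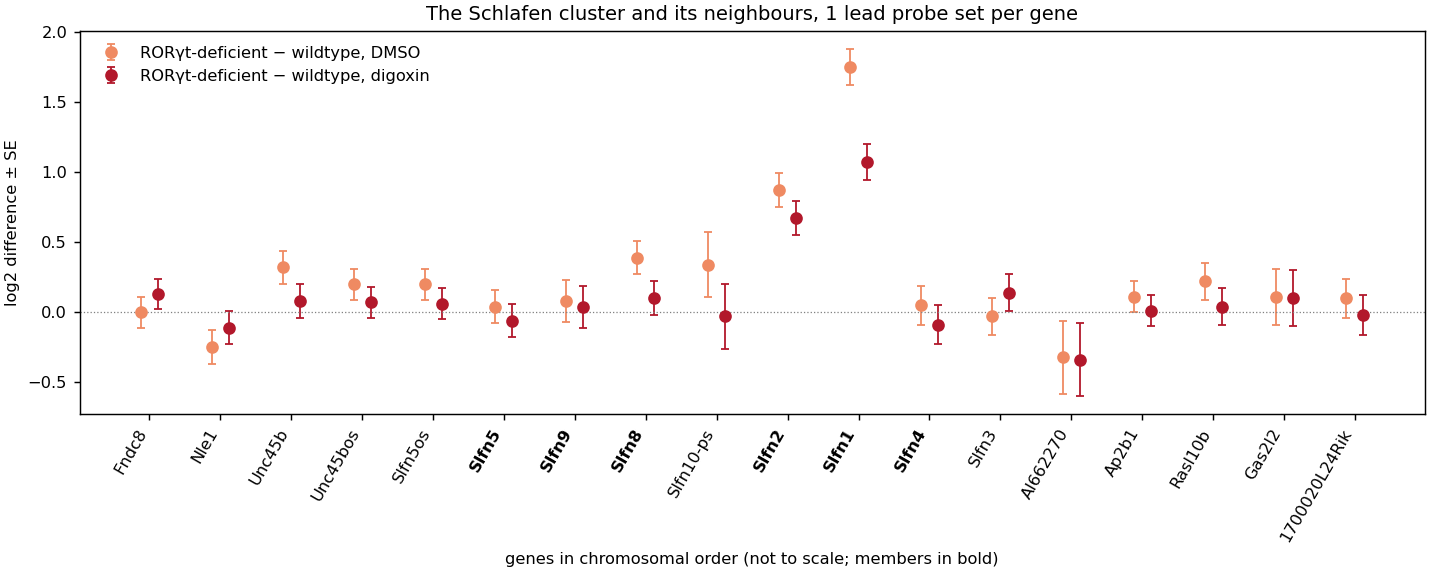
Log2 difference ± SE (vertical axis) of RORγt-deficient minus wildtype cells, in DMSO and in digoxin, for the Schlafen genes (bold) and 12 neighbours in chromosomal order, which is not to scale. Slfn2 (0.87 and 0.67) and Slfn1 (1.75 and 1.07) stand above the other genes, which lie between -0.34 and 0.39.

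Because Schlafen genes are known as interferon-induced and as genes of resting T cells, both groups were set beside them. These lists, and that of G1 and S phase below, were chosen with earlier results of these data known. Their counts and p-values are given as a description and are no support. Of 34 interferon-stimulated genes measured, 1 rose in RORγt-deficient cells in DMSO, Gbp2, an interferon-induced GTPase gene (1.02 ± 0.12, adjusted p = 0.00716), beside 0.184% of all probe sets called higher. At an unadjusted p under 0.05 stood 6, all higher, beside 9.06%. The list's median was 0.15, beside 0.01 for all probe sets. Zbp1, a nucleic acid sensor gene, stood at 0.62 ± 0.12 (adjusted p = 0.0658), Samd9l, an antiviral gene, at 0.56 ± 0.12 and Ifitm3, an antiviral membrane protein gene, at 0.28 ± 0.1. In digoxin-treated wildtype cells 0 of the 34 were called, 5 had an unadjusted p under 0.05, beside 6.26% of all probe sets, and the median was 0.07. There Samd9l stood at 0.79 ± 0.12 (adjusted p = 0.0795) and Gbp2 at 0.75 ± 0.12 (adjusted p = 0.0766). In the other 4 comparisons 0 were called, with medians from -0.05 to 0.05 and 1 or 2 genes at an unadjusted p under 0.05, beside 2.78% to 5.04% of all probe sets.

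Of 20 measured genes of T cell quiescence, 3 rose in RORγt-deficient cells in DMSO and 0 fell, beside 0.184% of all probe sets called higher. At an unadjusted p under 0.05 stood 7, all higher, beside 9.06%. The 3 were Txnip, which restrains glucose uptake (0.75 ± 0.12, adjusted p = 0.0233), Igfbp4, which encodes a binding protein of insulin-like growth factors (0.65 ± 0.11, adjusted p = 0.0373), and Ccr7, the lymph node homing receptor (0.58 ± 0.1, adjusted p = 0.0405). Dgka, a diacylglycerol kinase gene, stood at 0.42 ± 0.11 (adjusted p = 0.173). The median was 0.22. Calls in RORγt deficiency in DMSO depended on the processing, with 275 over all probe sets, 81 with only the compared groups and 5 after quantile normalisation. In the other 5 comparisons 0 of the 20 were called by limma, with medians from -0.11 to 0.18 and 1 to 6 genes at an unadjusted p under 0.05, beside 2.78% to 6.26% of all probe sets.

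The list of G1 and S phase genes holds inhibitors of the cell cycle, such as Cdkn1a and Rb1, beside genes that drive it. Its 20 measured members had a median of -0.13 in RORγt deficiency in DMSO. Of these 2 fell, Mki67, the proliferation marker Ki-67 (-1.11 ± 0.14, adjusted p = 0.0117), and Ccna2, cyclin A2 (-0.88 ± 0.14, adjusted p = 0.0233), beside 0.611% of all probe sets called in either direction. At an unadjusted p under 0.05 the list was divided, with 7 genes lower and 4 higher, beside 9.06%. Mcm5, a subunit of the replicative helicase, stood at -0.74 ± 0.18 and E2f2 at -0.35 ± 0.11. The genes named here, by smallest adjusted p, were all lower, and none of the 4 higher genes is among them. Under digoxin, Mki67 stood at -0.68 ± 0.14 and Ccna2 at -0.64 ± 0.14 in deficient minus wildtype cells, neither called. In the 5 comparisons other than RORγt deficiency in DMSO limma called 0 of the 20, and 0 to 6 had an unadjusted p under 0.05, beside 2.78% to 6.26%. Comparisons that share arrays are not independent of each other.

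The genes whose profile over the 8 arrays was most like that of Slfn1 1418612_at were sought among 68 genes. Their group means spanned at least 1 on the log2 scale. Schlafen genes and symbols that are clone or locus numbers had been left out. The most alike were Nkg7, a granule membrane protein gene (Pearson r = 0.99), Gzmb, granzyme B (0.97), Gbp2 (0.94), Bst1, the ectoenzyme CD157 (0.94), S100a6, a calcium-binding protein gene (0.94), and Tnfrsf23, a decoy receptor for TRAIL (0.91). The points of these correlations share 4 groups of arrays. Nkg7 had the same order of groups, with means of 1.53 in RORγt-deficient cells in digoxin, 1.29 in RORγt-deficient cells in DMSO, 0.82 in wildtype cells in digoxin and 0 in wildtype cells in DMSO. S100a6 differed from Slfn1 in wildtype digoxin, where its mean was 0.32. Within the family the correlation with Slfn1 1418612_at was 0.95 for Slfn2, 0.92 for Slfn8, 0.69 for Slfn9 1458803_at and from -0.25 to 0.28 for the other 6 probe sets.

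**Figure D4:**
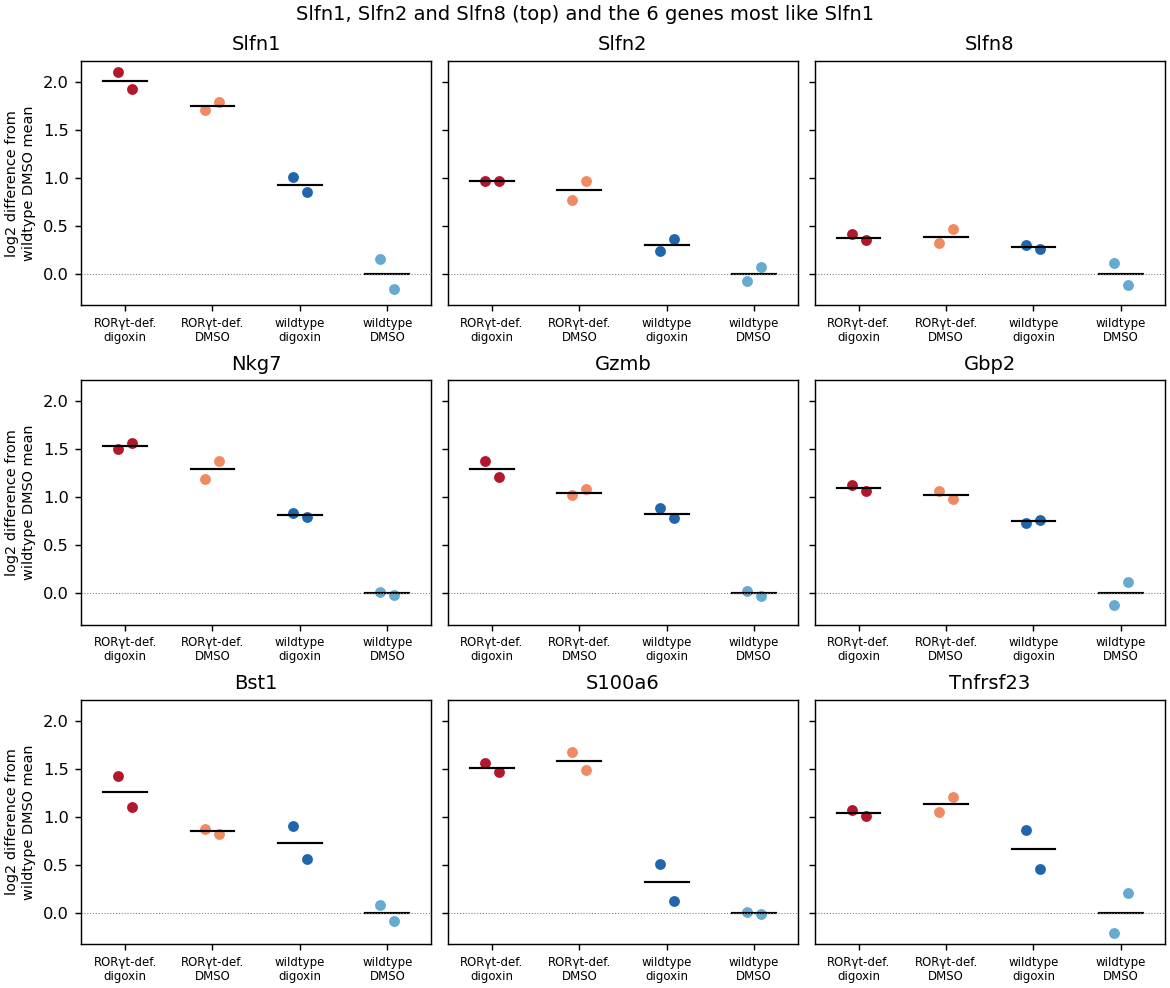
Log2 difference from the wildtype DMSO mean (vertical axis) of Slfn1, Slfn2 and Slfn8 and of the 6 genes most like Slfn1 over 8 arrays, by group; points are arrays and lines are means of 2. In Nkg7, Gzmb, Gbp2 and Bst1 the group means follow the order of Slfn1, and in S100a6 and Tnfrsf23 the deficient DMSO mean (1.58 and 1.13) is above the deficient digoxin mean (1.51 and 1.04).

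Markers of T cells and of other cell types were read on the same arrays. All 8 measured T cell markers, Cd3e and Cd4 among them, had a lowest level of 8 or above. Of 12 myeloid markers, which bear on the myeloid gene Slfn4, 7 had a lowest level between 2 and 4 and 5 between 4 and 8, and of 6 B, NK and CD8 T cell markers 2 and 4 did. Array means of the T cell markers were 0.28 and 0.19 in RORγt-deficient cells in digoxin and 0.2 and 0.22 in RORγt-deficient cells in DMSO. In wildtype cells these means were 0.17 and 0.15 in digoxin and -0.04 and 0.04 in DMSO, the lowest group as for Slfn1. Those of the myeloid markers were 0.11 and 0.23, -0.01 and 0.1, 0.01 and 0.18, and 0.02 and -0.02 in the same groups. Those of the B, NK and CD8 markers were 0.24 and 0.19, 0.09 and 0.18, 0.06 and 0.25, and 0.06 and -0.06. Limma called 0 of these 26 markers in any of the 6 comparisons. At an unadjusted p under 0.05, 3 T cell markers were higher in deficient than in wildtype cells in DMSO, beside 9.06% of all probe sets, and 2 T cell, 2 myeloid and 1 of the other markers in digoxin-treated than in DMSO-treated wildtype cells, beside 6.26%. The part of these markers in the Schlafen differences was not tested. The RORγt transcript was not analysed here, so it gave no check of genotype.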

How the data were processed

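The authors' deposited table holds log2 values of 45101 probe sets, made with RMA per the submitters' processing notes; the series' design text names GeneSpring GX 11.5. Each probe set's values on the 2 arrays of wildtype DMSO cells summed to 0 within 1e-05, so every value is a difference from their mean, a step no label records. No absolute level is left. Its range was read from single-precision steps in the numbers, a reading tested on simulated data. In the deposited values the reading gave no range for 2.6% of probe sets, Slfn5 1442640_at among them. Array medians lay between 0.0 and 0.02, with SDs from 0.09 in wildtype DMSO to 0.28. The number of arrays limits the precision.

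After leaving out 64 control probe sets, limma 3.58.1 in R 4.3.3 was fitted to 45037 probe sets, with 4 group means over 8 arrays, 4 residual and 5.8 prior degrees of freedom. Tests were two-sided, and p-values were adjusted by Benjamini-Hochberg over all probe sets within a comparison. Values after ± are limma standard errors unless given as SD. Replicates are named biological in the labels, with no animal or culture given, and the p-values therefore reflect the spread between these arrays alone, which may be technical.

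Of the probe sets 34945 had 1 symbol in the annotation, 932 had several and 9160 had no symbol; 34741 matched the GRCm38.p6 RefSeq table, the source of positions and promoters. A gene with several probe sets was represented in lists by the first in the order _at, _a_at, _s_at, _x_at and then identifier. Every member probe set was named, with up to 4 genes of each list by smallest adjusted p and the 6 genes most like Slfn1. Members and lists were chosen with earlier results of these data known. Alternatives were the compared groups only, each array left out, a replicate block, array weights, quantile normalisation, other feature sets, robust eBayes and a level filter.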

Additional observations from a re-analysis of the deposited data

How the results depend on the processing

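Of 902 member differences under the alternatives, 52 changed sign, none of them of a called difference. Slfn1 in RORγt deficiency in DMSO (1.75) ranged from 1.6 to 1.91 with single arrays left out and was 1.47 after quantile normalisation, which gives wildtype DMSO arrays the same spread as the others. Slfn1 under digoxin in wildtype cells (0.93) ranged from 0.78 to 1.09 with single arrays left out. The gap between the 2 Slfn1 probe sets (1.88) ranged from 1.61 to 2.15 and was 1.59 after quantile normalisation. The count of called members in RORγt deficiency, 2 of 10, was 1 to 2 with single arrays left out, 1 with only the compared groups and 0 after quantile normalisation. For digoxin in wildtype cells it was 0, and 1, Slfn1, with 1 probe set a gene or the replicate block. In the other 4 comparisons it was 0 under every alternative run. The adjusted p of Slfn1 for RORγt deficiency under digoxin ranged from 0.0633 to 1.0.

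The count over all probe sets for RORγt deficiency in DMSO, 275, was 81 with only the compared groups, 5 after quantile normalisation and 21 to 318 with single arrays left out. For digoxin in wildtype cells, 28 became 15, 5 and 3 to 25. For digoxin in deficient cells, 1 became 0 after quantile normalisation, with the level filter and without RORγt-deficient digoxin array 2, and RORγt deficiency under digoxin also lost its 1 call under some alternatives. Deficiency against digoxin had 0 calls and 3 with 1 probe set a gene, and the difference of the digoxin effects 0 and 1 without wildtype digoxin array 1. The arrays share replicate numbers. Correlations of same-numbered deviations were negative between wildtype DMSO and each other group (-0.24 to -0.13) and positive among the other groups (0.3 to 0.46). As the signs differed, the numbers were not taken to pair the arrays, and a replicate block was run as an alternative. The replicate block gave 308 calls for deficiency in DMSO and 36 for digoxin in wildtype cells, and 0.93 for Slfn1 there. The difference of the digoxin effects could not be run with only the compared groups.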
